A study of Homo sapiens with 32 samples.

Results

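The 47 genes described here encode the synaptic vesicle and release machinery: the proteins that sit on synaptic vesicles, prepare them at the release site, fuse them with the cell membrane and retrieve them. H3K27ac, the acetyl group on lysine 27 of histone H3 that active promoters and enhancers carry, was followed at these genes. Members were taken from a list of gene names, which was chosen with earlier results of these data known. Shares of the members' regions set beside those of all regions are therefore descriptions. A region from the study's comparison tables was linked to a member when the nearest protein-coding transcription start within 100 kb was the member's, or when the region overlapped the member's gene body. In all, 499 of 92108 regions were linked to 45 of the 47 members, and no region was linked to AMPH or STXBP6. Both links held for 291 regions, the nearest start alone for 64 and the gene body alone for 144. A region within 3 kb of a protein-coding start of its member was called a start-site region (67 regions at 41 members) and every other region distal (432 regions). The nearest or surrounding gene need not be the gene that a region regulates.

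Release of neurotransmitter depends on SNARE proteins. VAMP (synaptobrevin) on the vesicle pairs with syntaxin and SNAP25 on the cell membrane, and the zippering of the complex drives fusion. Synaptotagmins sense calcium and couple its entry to fusion, while RIM, MUNC13 (UNC13), RAB3 and the large scaffolds bassoon and piccolo dock and prime vesicles at the active zone. Neuroblastoma cells of the adrenergic type resemble immature sympathetic neurons, which use this machinery and the related one of dense-core vesicles to release catecholamines and peptides.

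The cells were SK-N-BE(2)C, an established human neuroblastoma line with amplified MYCN and of adrenergic type. They were cultured for 5 days with palbociclib (PB, 1 µM), an inhibitor of the CDK4/6 kinases that drive entry into S phase, with retinoic acid (RA), a differentiation agent that acts through nuclear receptors, with both (PB+RA), or with the solvent DMSO. Each of the 4 groups held 4 ChIP-seq libraries and 4 matching input libraries, and the study asked how the drugs, singly and together, alter the acetylation landscape. All samples came from 1 cell line, so the tests measure the spread between replicate cultures of that line. In such bulk samples, a change in the share of cells that carry the mark and a change in its amount per cell cannot be told apart.

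Each library came with its own broad peaks, 64516 (DMSO replicate 3) to 104392 of them over 104 to 167 Mb, and read depth per library is unknown here. The value used for a region in a library is the scaled enrichment: the fold enrichment over input of that library's peaks, averaged over the whole region with 0 where no peak was called, and scaled between libraries (factors 0.824 to 1.45). A value of 0 therefore means that no peak was called, not that acetylation was absent, and a difference from a group at 0 depends on the added constant of 1 and is no fold change. Differences are on the scale of log2(scaled enrichment + 1). They were tested with limma over all 92108 regions, and a region was called at a Benjamini-Hochberg adjusted p under 0.05 and a difference beyond 0.5. Of the adrenergic markers, HAND2, GATA3, TH and DBH are named singly and had a start-site peak in all 4 DMSO libraries. Counted over their whole lists, the same held for 6 of 10 mesenchymal, 5 of 7 glial, 2 of 7 endothelial and 1 of 8 immune markers.

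Sequence at the members' starts was searched for the RE1 element, which the repressor REST binds at many neuronal genes in non-neuronal cells. The search took CAGCACC followed by GGACAG with 0 to 12 bases between them, on both strands, within 1 kb either side of each gene's most upstream protein-coding start. Such a match was found at 9 of 47 members (19.1%: BSN, CPLX1, CPLX2, SNAP25, SYN1, SYP, SYT4, SYT5 and UNC13A), against 172 of 19807 start windows in all (0.868%). In 5 of the 9 the spacing was the 2 bases of the canonical element. These 5 are shown because SYT4 and SYT5, which rose most at their starts with PB+RA among the regions standing for a member, carry it, as do SNAP25, SYN1 and SYP, which were not called there. Capitals mark the matched letters, with 6 bases on either side, on the strand of the match (GRCh37/hg19).
SNAP25, chr20:10200316-10200342, plus strand, intron, 844 bases after the start: acctttCAGCACCggGGACAGcggtcc
SYN1, chrX:47479467-47479493, minus strand, upstream of the gene: cagcttCAGCACCgcGGACAGtgcctt
SYP, chrX:49056579-49056605, minus strand, intron, 59 bases after the start: gcgctcCAGCACCgtGGACAGagcccg
SYT4, chr18:40857256-40857282, minus strand, untranslated exon, 179 bases after the start: tcccttCAGCACCtcGGACAGaacacg
SYT5, chr19:55691566-55691592, minus strand, untranslated exon, 71 bases after the start: cgcgatCAGCACCcgGGACAGcgccac
A match is a description of the letters and not a bound site. Of the 9 members, SYT4 and SYT5 rose and BSN fell at the start-site region that stood for them, and the other 6 were not called there. Over whole regions, 14 of the members' 499 regions held the element (2.81%), against 0.703% of all regions with sequence. Retinoid direct repeats lay in the start windows of 2 of 47 members (4.26%), BSN and SYNPR, against 5.29% of all windows. Such a repeat was a pair of half-sites on 1 strand, spaced by 1, 2 or 5 bases, each of them the classical AGGTCA or a relative that starts with G (GGGTCA), has a T in the middle (AGTTCA), or has both of these changes (GGTTCA), and both strands were searched. The cyclic AMP element TGACGTCA lay at 5 members (10.6%: BSN, SNAP25, SYN1, SYNGR1 and SYNGR3), against 3.97% of all windows. In the members' regions themselves, 7.21% held a retinoid repeat and 2% the cyclic AMP element, against 9.12% and 2.08% of all regions. Of the distal regions given per library, one in SYN2 (chr3:12171140-12178826) held the RE1 letters, one in SNAP25 (chr20:10268875-10296722) the cyclic AMP element, and one each in RIMS3 (chr1:41096347-41097174) and RIMS2 a retinoid repeat.

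The middle 300 bases of 2 distal regions are shown because these regions changed alike in all 3 treatments and in opposite directions (GRCh37/hg19, plus strand, no capitals). The RIMS1 region, in an intron, was the member region with the largest rise with PB+RA and had no peak in any DMSO library (38.3% GC over the stretch shown). The SYT9 region, also in an intron, had a peak in DMSO libraries alone (50.3% GC). Neither region held any of the 3 motifs searched.
RIMS1 distal, chr6:72843032-72843331: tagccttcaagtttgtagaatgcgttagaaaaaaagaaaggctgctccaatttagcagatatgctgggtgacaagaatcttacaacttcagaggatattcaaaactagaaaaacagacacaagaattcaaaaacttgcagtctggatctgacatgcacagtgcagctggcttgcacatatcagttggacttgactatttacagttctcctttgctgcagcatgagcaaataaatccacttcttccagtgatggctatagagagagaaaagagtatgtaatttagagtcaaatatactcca
SYT9 distal, chr11:7362047-7362346: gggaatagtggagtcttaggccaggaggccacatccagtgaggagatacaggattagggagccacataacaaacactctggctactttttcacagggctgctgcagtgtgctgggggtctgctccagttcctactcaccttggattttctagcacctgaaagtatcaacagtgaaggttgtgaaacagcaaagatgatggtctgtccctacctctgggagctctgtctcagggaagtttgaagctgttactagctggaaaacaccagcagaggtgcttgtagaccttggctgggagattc

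Most members were acetylated at their start in every condition. Of the 67 start-site regions, 42 had a peak in all 16 libraries, and the same held for 32 of the 41 regions that stood for a member (the one with the highest mean concentration where a member had several). The authors' mean log2 concentration sums the whole region, so it grows with width and is not compared here between genes. Its highest start-site values belonged to wide regions, those of STXBP5 (12.3 kb, 11.05 with PB, 11.41 with RA, 11.61 with PB+RA and 10.88 with DMSO), RIMS2 (5.93 kb, 10.87 with PB, 10.97 with RA, 11.03 with PB+RA and 11.43 with DMSO) and SYT1 (11.1 kb, 10.98 with PB, 10.76 with RA, 11.23 with PB+RA and 10.92 with DMSO). Its lowest values belonged to regions under 1 kb wide, those of CADPS2 (1.94 with PB, 4.47 with RA, 2.05 with PB+RA and 4.30 with DMSO), SYT13 (1.42 with PB, 3.53 with RA, 2.51 with PB+RA and 2.07 with DMSO) and NRXN3 (1.00 with PB, 3.43 with RA, 1.74 with PB+RA and 2.94 with DMSO), none of which had a peak in more than 2 libraries of any group. NSF, SYN3, SYT6 and UNC13C had regions but none at a start. The authors' mean is the average of a group with no value per library, so it carries no error.

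With PB, 2 of the 67 start-site regions were called higher (2.99%, against 2.06% of all 19896 start-site regions) and 3 lower (4.48%, against 8.66%). With RA, 4 were higher (5.97%, against 6.09%) and 6 lower (8.96%, against 4.67%). With PB+RA, 7 were higher (10.4%, against 9.85%) and 6 lower (8.96%, against 16.7%). The share called higher was near the background in all 3 comparisons, and the share called lower was below it with PB and PB+RA and above it with RA. The 3 comparisons share the DMSO libraries. These are small counts: those called higher with PB ranged from 1 to 4, those called lower with PB from 1 to 4 and those called higher with RA from 1 to 6 when single libraries were left out. After centring each library within 10 classes of GC content, PB called 6 start-site regions higher and 0 lower, RA 4 and 4, and PB+RA 10 and 4. The shares of all start-site regions under this centring are not given here, so these counts have no background beside them. Over start-site and distal regions together, PB then called 3146 of all regions higher and 1667 lower, in place of 4471 and 4026. The plot of differences by member shows the small spread of most start-site regions around 0, with SYT4, SYT5, RIMS1, SYNGR3, CADPS2 and NRXN3 among those farthest from it.

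**Figure D1:**
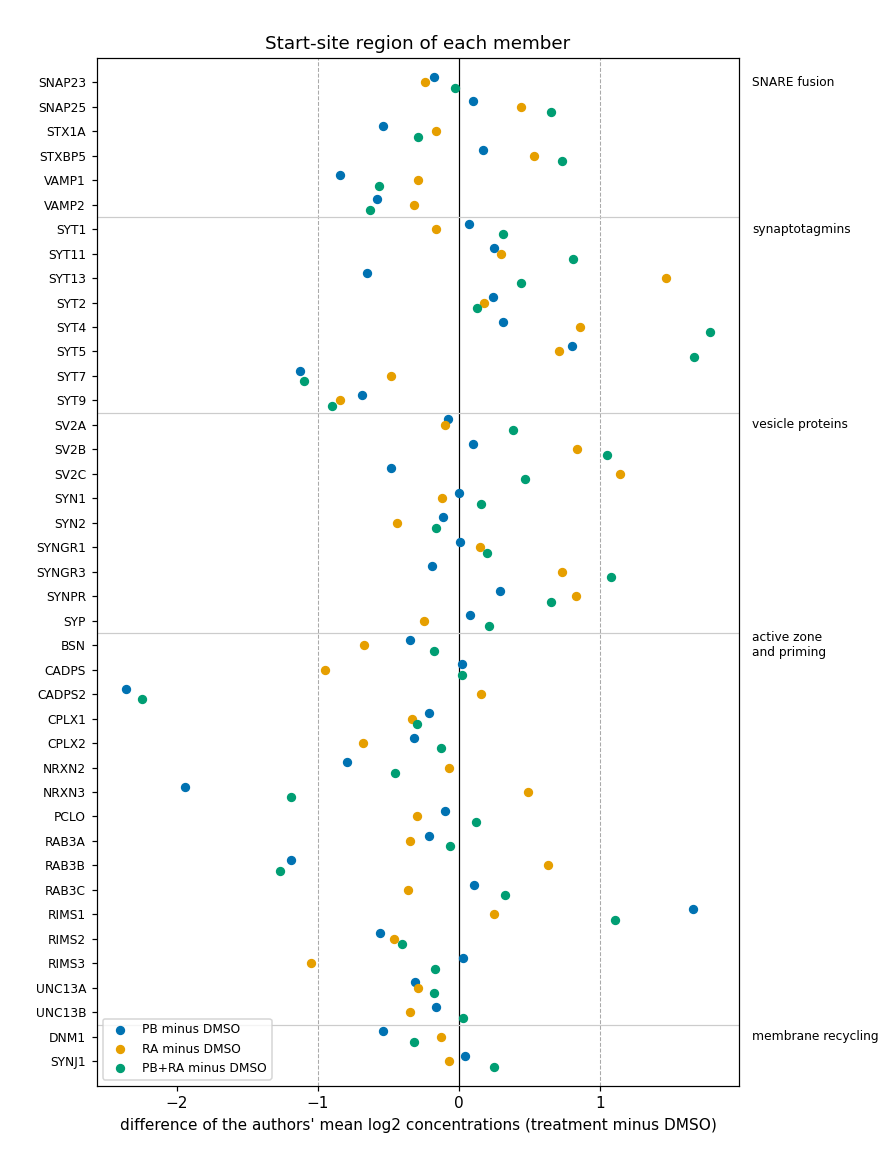
Difference of the authors' mean log2 concentration (PB, RA or PB+RA minus DMSO, x axis) at the start-site region that stands for each of 41 members (y axis, by role); dashed lines mark a difference of 1 in either direction. SYT4 lies at 1.78 and SYT5 at 1.67 with PB+RA, RIMS1 (an inner start) at 1.66 with PB and RIMS3 at -1.05 with RA. The points are group means with no error.

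Among the synaptotagmins, the start sites of SYT5, SYT4 and SYT11 rose and that of SYT9 fell. SYT5 is a calcium-sensing member of the family found on dense-core vesicles. Its start-site region (chr19:55689376-55692296, over coding exons) had a scaled enrichment of 6.15, 7.67, 7.05 and 4.2 with PB, 6.09, 5.59, 7.31 and 4.5 with RA, 9.29, 11.6, 6.77 and 10.8 with PB+RA, against 3.25, 3.61, 3.92 and 2.9 with DMSO. Every treated library lay above every DMSO library, and the region rose by 0.70 (SE 0.19, adjusted p = 0.0221) with PB, 0.63 (SE 0.19, adjusted p = 0.0222) with RA and 1.24 (SE 0.19, adjusted p = 3.65e-05) with PB+RA. PB+RA was also above PB by 0.55 (SE 0.19, adjusted p = 0.0465) and above RA by 0.62 (SE 0.19, adjusted p = 0.029). The PB and RA calls of SYT5 were each lost without some single libraries, DMSO replicate 4 among them. SYT4, an atypical synaptotagmin of secretory vesicles, had 2.14, 1.37, 4.2 and 1.54 in the PB libraries, 3.54, 2.72, 4.05 and 3.94 in the RA libraries, 4.74, 5.58, 5.59 and 6.53 in the PB+RA libraries, against 1.62, 1.25, 2.59 and 1.61 in the DMSO libraries at chr18:40853520-40859788. The RA and PB+RA libraries all lay above the DMSO libraries, whereas PB overlapped them, and the region rose by 0.73 (SE 0.22, adjusted p = 0.0224) with RA and 1.27 (SE 0.22, adjusted p = 1.52e-04) with PB+RA. Both SYT4 calls were lost after centring within classes of GC content (0.47 and 0.57), and the RA call also without RA replicate 3, RA replicate 4 or DMSO replicate 2.

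SYT11, a family member that does not bind calcium and is linked to vesicle retrieval, shares its start-site region (chr1:155825907-155832795) with the start of GON4L. Its values were 11.4, 10.8, 13.8 and 12 with PB, 12.9, 11.3, 9.35 and 10.8 with RA, 12.8, 15.5, 20.9 and 15.9 with PB+RA, against 6.89, 7.5, 9.22 and 8.9 with DMSO. The treated and DMSO libraries did not overlap in any comparison, but only the rise of 0.91 (SE 0.16, adjusted p = 2.29e-04) with PB+RA was called. The start-site region of SYT9, a fast calcium sensor of a subset of neurons (chr11:7272626-7275639), had 4.54, 6.56, 3.36 and 3.88 in the PB libraries, 3.15, 2.69, 3.95 and 3.55 in the RA libraries, 2.97, 4.21, 1.64 and 4.59 in the PB+RA libraries, against 7.06, 6.94, 10.7 and 6.25 in the DMSO libraries. All RA and PB+RA libraries lay below all DMSO libraries, and the region fell by 0.99 (SE 0.22, adjusted p = 0.00288) with RA and 1.04 (SE 0.22, adjusted p = 0.0012) with PB+RA. The PB+RA call was lost after GC centring (-0.61). SYT7, a slow, high-affinity sensor, fell by 1.37 (SE 0.42, adjusted p = 0.0441) with PB at its start (chr11:61347073-61349143), where it averaged 2.38 ± 2.31 with PB and 6.15 ± 1.92 with DMSO (SD, n = 4 each). That call was lost after GC centring (-0.80) and without any 1 of 12 of the 16 libraries, all 4 DMSO libraries among them.

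Of the SNARE genes, STXBP5 rose at its start while both VAMP genes were lower. STXBP5 encodes tomosyn, which binds syntaxin and competes with VAMP. At chr6:147522423-147534738, a 12.3 kb region, its values were 11.3, 15.1, 9.85 and 9.96 with PB, 16.3, 14.6, 14.2 and 15.8 with RA, 17.2, 19.6, 13.7 and 14.5 with PB+RA, against 11.4, 9.82, 10.2 and 6.84 with DMSO. The RA and PB+RA libraries all exceeded the DMSO libraries, and the rise was 0.63 (SE 0.17, adjusted p = 0.0136) with RA and 0.71 (SE 0.17, adjusted p = 0.00364) with PB+RA. Both calls were lost after GC centring (0.42 and 0.22), and the RA call without DMSO replicate 4. VAMP2, the main neuronal vesicle SNARE, had 7.64, 7.65, 7.3 and 4.76 in the PB libraries, 6.48, 8.15, 8.21 and 8.27 in the RA libraries, 6.61, 6.06, 5.45 and 6.34 in the PB+RA libraries, against 9.97, 8.89, 11.4 and 7.49 in the DMSO libraries at chr17:8061744-8068516, a region it shares with the start of another annotated gene. The PB+RA libraries all lay below the DMSO libraries, and the fall was 0.54 (SE 0.16, adjusted p = 0.0148). VAMP1, its close relative, had 4.82, 5.32, 6.25 and 7.71 with PB, 8.37, 8.98, 7.66 and 8.48 with RA, 5.54, 6.54, 5.84 and 8.39 with PB+RA, against 6.57, 9.47, 10.6 and 11.5 with DMSO at chr12:6578595-6580964. The PB and DMSO libraries overlapped, and the fall of 0.58 (SE 0.18, adjusted p = 0.0414) with PB was called at the edge of both thresholds. The VAMP1 and VAMP2 calls were lost after GC centring (-0.35 and -0.11) and when single libraries were left out, among them DMSO replicate 3. SNAP25, SNAP23 and STX1A, the membrane SNAREs, were not called at their starts.

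At the active zone genes, RIMS1 rose at an inner start, and RIMS3, BSN and RAB3B fell. RIMS1 encodes the scaffold that ties RAB3 on the vesicle to MUNC13 and calcium channels. RIMS1 had 3 start-site regions, and the one that stood for it (chr6:72925508-72928212) lay at an inner start, over a coding exon. It had 4.1, 3.66, 2.45 and 2.31 in the PB libraries, 0, 0.577, 0.709 and 0 in the RA libraries, 1.34, 1.5, 2.21 and 2.81 in the PB+RA libraries, against 0.422, 0.351, 1.36 and 0 in the DMSO libraries. All PB libraries lay above all DMSO libraries, and the region rose by 1.48 (SE 0.29, adjusted p = 0.00323) with PB and 1.00 (SE 0.29, adjusted p = 0.0127) with PB+RA, the second of which was lost after GC centring (0.36). RIMS3 encodes a short RIM protein that lacks most domains of the long forms. Over chr1:41124304-41132659 it had 8.95, 8.18, 8.39 and 10.4 with PB, 3.41, 3.79, 4.07 and 3.22 with RA, 6.03, 6.21, 6.8 and 5.05 with PB+RA, against 8.87, 8.65, 11 and 6.47 with DMSO. The RA libraries were the 4 lowest of the 16 and did not overlap any other group, and the fall with RA was 1.06 (SE 0.16, adjusted p = 5.08e-05). PB+RA lay above RA by 0.60 (SE 0.16, adjusted p = 0.0137).

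BSN encodes bassoon, a giant scaffold of the active zone. Its start-site region (chr3:49590424-49594799) had 9.01, 8.83, 7.35 and 5.62 in the PB libraries, 4.65, 5.25, 6.89 and 6.05 in the RA libraries, 6.51, 11.4, 6.71 and 7.84 in the PB+RA libraries, against 7.93, 9.37, 13.4 and 8.06 in the DMSO libraries. The RA libraries all lay below the DMSO libraries, and the region fell by 0.66 (SE 0.19, adjusted p = 0.0218) with RA, a call lost without RA replicate 1, RA replicate 2 or DMSO replicate 3 and after GC centring (-0.61). RAB3B is a vesicle GTPase that binds RIM. Its start-site region (chr1:52455932-52456415), under 1 kb wide, had 1.66, 1.46, 0 and 0 with PB, 2.92, 3.29, 5.67 and 5.56 with RA, 0, 0, 0 and 2.19 with PB+RA, against 1.11, 1.36, 5.29 and 3.92 with DMSO. The PB+RA and DMSO libraries overlapped, the fall with PB+RA was 1.40 (SE 0.42, adjusted p = 0.014), and the call was lost without DMSO replicate 3 and after GC centring (-0.87). Against RA, PB+RA was lower by 1.96 (SE 0.42, adjusted p = 0.00373).

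SYNGR3, a vesicle membrane protein of the synaptogyrin family, was the one vesicle protein called at its start (chr16:2038505-2041586). It had 1.89, 2.5, 2.41 and 2.08 in the PB libraries, 2.7, 3.78, 5.14 and 6.16 in the RA libraries, 5.27, 5.8, 5.02 and 9.37 in the PB+RA libraries, against 2.27, 1.16, 2.25 and 4.33 in the DMSO libraries. All PB+RA libraries exceeded all DMSO libraries, and the rise was 1.11 (SE 0.24, adjusted p = 0.00146) with PB+RA. PB+RA also exceeded PB, by 1.16 (SE 0.24, adjusted p = 0.00189). The start sites of SYN1, SYN2, SYP, SV2A, SV2B, SV2C, SYNPR and SYNGR1 were not called in any comparison with DMSO. The SYN1, SYN2, SYP, SV2A and SYNGR1 regions had a peak in all 16 libraries.

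**Figure D2:**
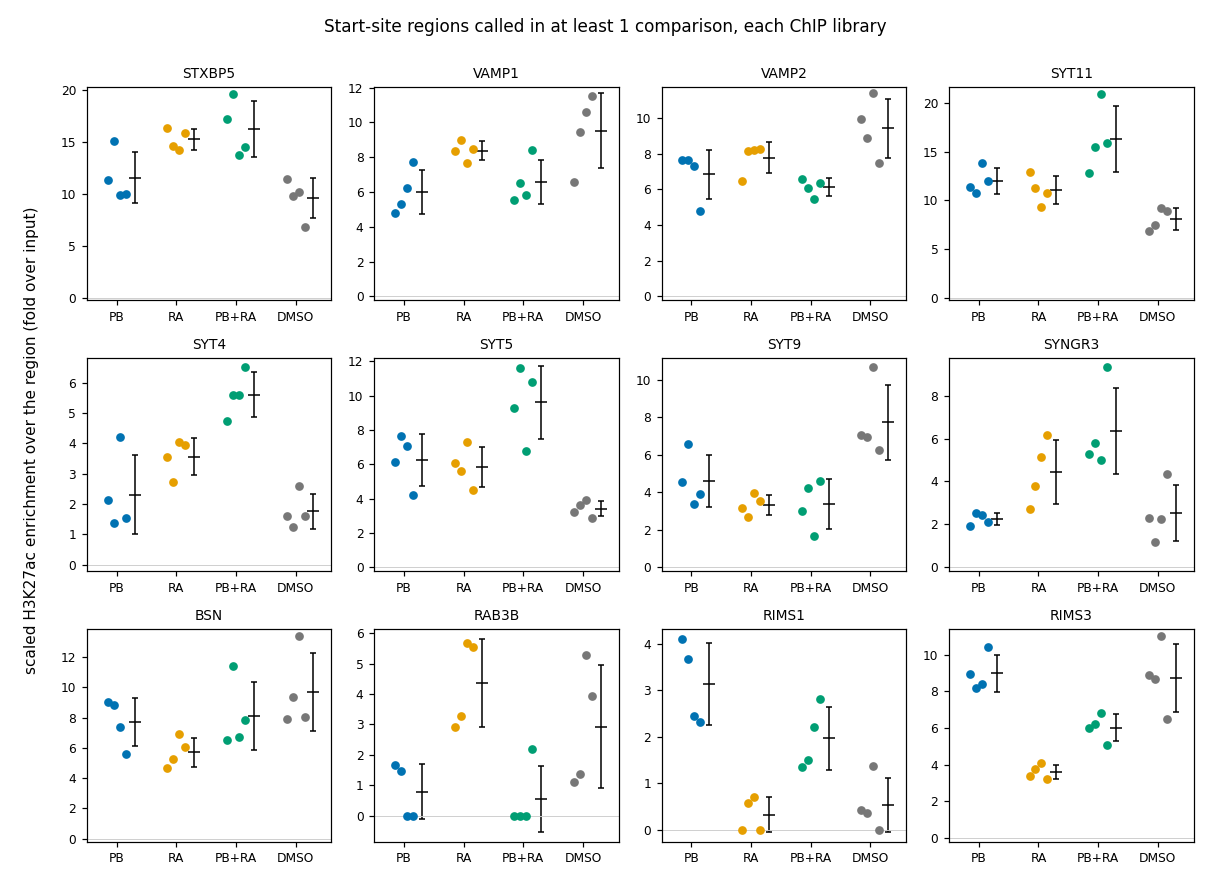
Scaled H3K27ac enrichment (y axis, fold over input) in each ChIP library at 12 start-site regions called in at least 1 comparison with DMSO; points are libraries in the groups PB, RA, PB+RA and DMSO, and the bar is the mean ± SD (n = 4). The 4 SYT5 libraries of PB+RA lie between 6.77 and 11.6, above the DMSO libraries at 2.9 to 3.92, and the 4 RIMS3 libraries of RA lie between 3.22 and 4.07, below the DMSO libraries at 6.47 to 11.

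Some members had further starts that moved apart from the main one. The RIMS2 region at chr8:105234205-105240619, at a downstream start, fell by 1.08 (SE 0.18, adjusted p = 1.51e-04) with RA and 1.81 (SE 0.18, adjusted p = 2.32e-07) with PB+RA, with means of 4.91 ± 0.376 with RA, 2.66 ± 1.16 with PB+RA and 11.5 ± 1.68 with DMSO (SD, n = 4 each). The RIMS2 region with the highest mean concentration (chr8:104510365-104516292) was not called. CPLX2, a complexin that clamps and promotes SNARE fusion, fell by 0.69 (SE 0.16, adjusted p = 0.00397) with RA and 0.76 (SE 0.16, adjusted p = 0.00108) with PB+RA at an inner start (chr5:175279887-175313744, 33.9 kb wide). NRXN2, a presynaptic adhesion protein, fell by 1.82 (SE 0.40, adjusted p = 0.00709) with PB and 1.71 (SE 0.40, adjusted p = 0.00268) with PB+RA at an inner start (chr11:64480775-64481710), where no PB library had a peak, and the PB call was lost after GC centring (-1.24). SYT1, the main calcium sensor for fast release, rose by 1.04 (SE 0.38, adjusted p = 0.0394) with PB+RA at an inner start (chr12:79370899-79372240), a call lost after GC centring (0.55) and without PB+RA replicate 1, PB+RA replicate 3 or any 1 DMSO library. CADPS, which primes dense-core vesicles, fell by 0.67 (SE 0.22, adjusted p = 0.0428) with RA at its main start, a call lost after GC centring (-0.62) and without any 1 RA library, PB+RA replicate 1 or DMSO replicate 1, 2 or 3. A second SYT5 region rose by 0.62 (SE 0.19, adjusted p = 0.0229) with RA, a call lost without RA replicate 3, RA replicate 4, DMSO replicate 1 or DMSO replicate 2.

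Most member regions were distal, and so were most of the called ones. Of the 181 member regions called in at least 1 comparison with DMSO, 19 were start-site regions, as were 67 of all 499. Over all regions, distal means not within 3 kb of any protein-coding start, and regions with no start within 100 kb are included. Of the members' distal regions, 7 lay within 3 kb of another gene's start. With PB, 39 of 432 distal regions were called higher (9.03%, against 5.63% of all 72212 distal regions) and 3 lower (0.694%, against 3.19%). With RA, 32 were higher (7.41%, against 11.5%) and 34 lower (7.87%, against 7.22%). With PB+RA, 95 were higher (22%, against 20.6%) and 28 lower (6.48%, against 10.8%). The share called higher was above the background with PB, below it with RA and near it with PB+RA, and the share called lower was below the background with PB and PB+RA. Leaving out DMSO replicate 3 raised the distal regions called lower to 14 with PB and 44 with PB+RA, and over all regions it raised the number called lower to 7139 (in place of 4026) with PB and 15404 (in place of 11095) with PB+RA. Over start-site and distal regions together, PB called 41 member regions higher, and 22, 26, 26 and 25 without PB replicate 2, PB replicate 3, DMSO replicate 1 and DMSO replicate 2. Over all regions PB called 4471 higher, and 2885, 3607, 3302 and 3095 without the same libraries.

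Base composition moved with these counts. The members' regions had a median GC content of 43.7%, against 47.1% for all regions, and the member regions with a peak had a median GC content of 41.5% ± 0.493 in PB+RA libraries and 47.7% ± 2.16 in DMSO libraries (SD, n = 4 each). When each library was centred within 10 classes of GC content, PB+RA called 48 distal regions higher and 53 lower, RA 25 higher and 50 lower, and PB 19 higher and 1 lower. The centring moved the balance over all regions too: of the 92108 regions, PB+RA then called 11013 higher and 10464 lower, in place of 16856 and 11095, RA 8114 and 8110, in place of 9495 and 6145, and PB 3146 and 1667, in place of 4471 and 4026. Whether the GC difference between libraries is technical was not tested.

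**Figure D3:**
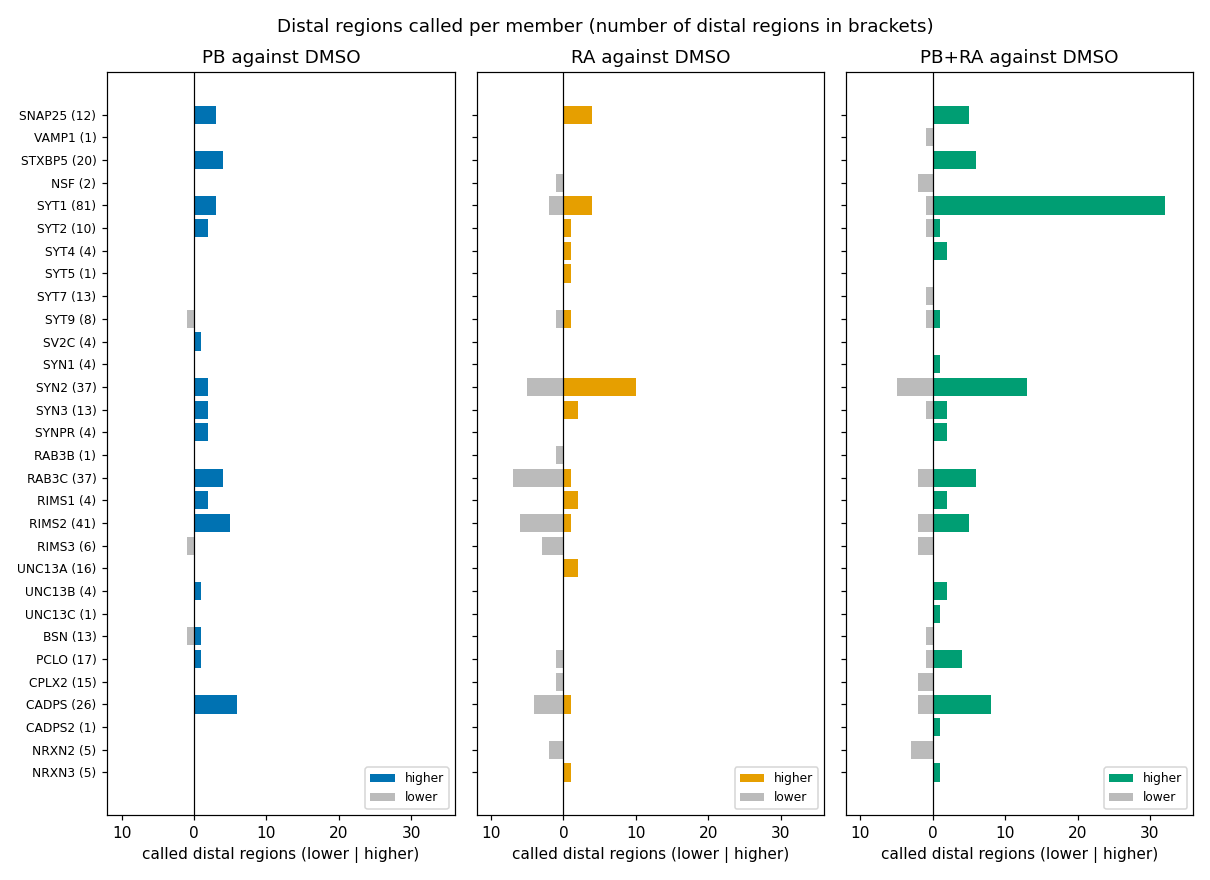
Number of distal regions called higher (to the right) and lower (to the left, grey) for each member with at least 1 call, in PB, RA and PB+RA against DMSO; brackets give the member's distal regions. SYT1 has 32 distal regions higher with PB+RA, SYN2 has regions called in both directions with RA and PB+RA, and RAB3C and RIMS2 have regions higher with PB and lower with RA.

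In the SNARE group, PB called 7 of 44 regions higher (15.9%, against 4.85% of all regions) and 1 lower (2.27%, against 4.37%). RA called 5 higher (11.4%, against 10.3%) and 1 lower (2.27%, against 6.67%), and PB+RA 12 higher (27.3%, against 18.3%) and 4 lower (9.09%, against 12%). After GC centring the SNARE counts were 3 higher and 0 lower with PB, 4 and 1 with RA, and 8 and 2 with PB+RA. All of the rises belonged to SNAP25 and STXBP5. SNAP25, which supplies a pair of helices to the SNARE bundle, had 13 regions, of which PB raised 3, RA 4 and PB+RA 5, and none fell. After GC centring the SNAP25 counts were 2, 4 and 5. The widest of its regions (chr20:10268875-10296722, 27.8 kb, over coding exons) had 0.886, 1.09, 0.835 and 0.964 with PB, 5.25, 4.87, 3.49 and 4.23 with RA, 5.08, 6.02, 5.02 and 3.67 with PB+RA, against 0.0822, 0.37, 0.208 and 0.276 with DMSO. The RA and PB+RA libraries lay far above the others with no overlap, and the region rose by 0.66 (SE 0.19, adjusted p = 0.0322) with PB, 2.14 (SE 0.19, adjusted p = 1.70e-07) with RA and 2.26 (SE 0.19, adjusted p = 3.66e-08) with PB+RA. A neighbouring region (chr20:10247236-10261371) had 1.53, 1.6, 2.4 and 1.86 in the PB libraries, 3.4, 3.62, 3.75 and 3.93 in the RA libraries, 3.95, 4.49, 4.62 and 3.84 in the PB+RA libraries, against 0.725, 0.368, 0.826 and 0.592 in the DMSO libraries. Its groups stood in the order PB+RA, RA, PB and DMSO, though PB+RA and RA overlapped, and it rose by 0.80 (SE 0.17, adjusted p = 0.00594) with PB, 1.53 (SE 0.17, adjusted p = 2.75e-06) with RA and 1.69 (SE 0.17, adjusted p = 4.64e-07) with PB+RA.

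STXBP5 had 21 regions, of which PB raised 4, RA 1 and PB+RA 7, and 15 of the 21 had no peak in any DMSO library. Those 15 are in the set only through treated libraries. After GC centring, PB raised 1 STXBP5 region and PB+RA 3. Upstream of the gene (chr6:147477038-147477951), the values were 1.79, 2.91, 1.05 and 2.79 with PB, 0.507, 0, 0 and 0 with RA, 1.83, 1.75, 0 and 1.58 with PB+RA, against 0 in all 4 DMSO libraries. PB libraries all carried a peak where DMSO libraries had none, and the region rose by 1.60 (SE 0.34, adjusted p = 0.00563) with PB and 1.08 (SE 0.34, adjusted p = 0.0199) with PB+RA. NSF, the ATPase that takes spent SNARE complexes apart, had 2 regions in its introns, both nearest to the start of WNT3. The one at chr17:44810028-44812515 had 4.15, 3.47, 3.75 and 2.76 in the PB libraries, 0.236, 0, 0 and 0 in the RA libraries, 0.916, 0.474, 0 and 0 in the PB+RA libraries, against 3.81, 2.74, 3.44 and 2.8 in the DMSO libraries. RA and PB+RA libraries lay below all PB and DMSO libraries, and the region fell by 1.99 (SE 0.25, adjusted p = 7.01e-06) with RA and 1.69 (SE 0.25, adjusted p = 2.62e-05) with PB+RA. The other (chr17:44797410-44798657) had 0, 0.332, 2.96 and 0 with PB, 1.04, 0, 0 and 1.15 with RA, 0 in all 4 PB+RA libraries, against 2.72, 1.09, 1.98 and 1.14 with DMSO. PB+RA alone lacked a peak throughout, and the fall was 1.41 (SE 0.40, adjusted p = 0.0108).

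Over the 137 synaptotagmin regions, PB called 6 higher (4.38%, against 4.85% of all regions) and 2 lower (1.46%, against 4.37%). RA called 11 higher (8.03%, against 10.3%) and 4 lower (2.92%, against 6.67%). PB+RA called 40 higher (29.2%, against 18.3%) and 5 lower (3.65%, against 12%), which became 19 and 14 after GC centring. SYT1 carried 86 of these regions, 82 of them in its gene body. With PB+RA, 33 of the 86 rose and 1 fell, whereas PB called 3 higher and 0 lower and RA 4 higher and 2 lower. In all, 34 of the 86 had no peak in any DMSO library, and 9 regions had a peak in all 4 PB+RA libraries and in no DMSO library. Such regions are in the set only through treated libraries, and the share of all regions without a DMSO peak is not given here. The difference between PB+RA and PB was called at 16 regions higher and 3 lower, and between PB+RA and RA at 15 higher and 0 lower. The interaction of the drugs was called at none of the SYT1 regions. SYT1 regions are poor in GC (median 37.1%), and after GC centring PB+RA called 7 higher and 10 lower. Without SYT1, PB+RA called 69 of the remaining 413 member regions higher (16.7%, below the 18.3% of all regions) and 33 lower (7.99%, against 12%), whereas with SYT1 it called 102 of 499 higher (20.4%).

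In a SYT1 intron, 19.8 kb from an inner start (chr12:79459868-79460939), the values were 0, 0.623, 0 and 0 in the PB libraries, 0.833, 0.476, 0 and 0 in the RA libraries, 1.64, 3.71, 2.53 and 2.77 in the PB+RA libraries, against 0 in all 4 DMSO libraries. The PB+RA libraries all lay above every other library, and the region rose by 1.84 (SE 0.31, adjusted p = 1.17e-04) against DMSO, 1.67 (SE 0.31, adjusted p = 6.33e-04) against PB and 1.48 (SE 0.31, adjusted p = 0.00322) against RA. Far downstream in the same gene (chr12:79762818-79765298, intron), the values were 0, 0.159, 0 and 0 with PB, 2.59, 3.03, 1.7 and 2.62 with RA, 2.58, 3.53, 2.86 and 2.4 with PB+RA, against 0.427, 0, 0.679 and 0.234 with DMSO. RA and PB+RA libraries did not overlap with PB or DMSO libraries, and the region rose by 1.40 (SE 0.25, adjusted p = 3.09e-04) with RA and 1.54 (SE 0.25, adjusted p = 6.74e-05) with PB+RA.

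**Figure D4:**
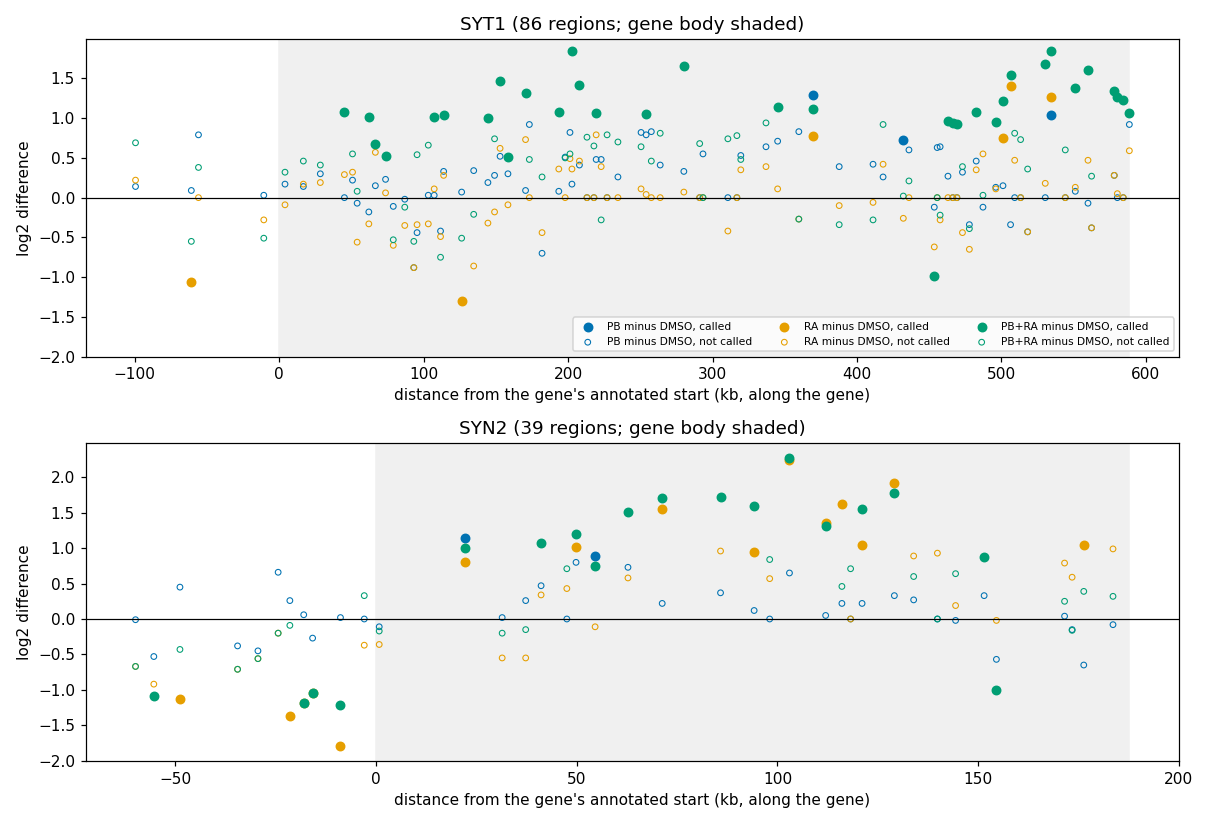
Difference from DMSO on the log2(scaled enrichment + 1) scale (y axis) at each SYT1 and SYN2 region against its distance in kb from the gene's annotated start (x axis, gene body shaded); filled points are called and open points are not, for PB, RA and PB+RA. With 1 exception, called PB+RA points lie above 0 along nearly the whole SYT1 gene. The called SYN2 points lie below 0 upstream of the gene and, with 1 exception, above 0 within it.

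SYT9 was called in opposite directions at different places. An intronic region (chr11:7361771-7362624) had 0 in all 4 PB libraries, 0 in all 4 RA libraries, 0 in all 4 PB+RA libraries, against 2.54, 2.05, 0.85 and 1.32 in the DMSO libraries. It had a peak in all 4 DMSO libraries and in none of the 12 treated libraries, and fell by 1.38 in each comparison (SE 0.27), with an adjusted p of 0.00271 for PB, 7.85e-04 for RA, 4.72e-04 for PB+RA. Further along the gene (chr11:7482634-7485491, intron, nearest to the start of OLFML1) the values were 1.03, 0.569, 0.659 and 0 with PB, 2.1, 1.74, 1.5 and 1.8 with RA, 3.7, 4.1, 3.55 and 4.25 with PB+RA, against 0, 1.02, 0 and 0.449 with DMSO. PB+RA libraries exceeded RA libraries, which exceeded the PB and DMSO libraries, and the region rose by 1.09 (SE 0.26, adjusted p = 0.00539) with RA and 1.90 (SE 0.26, adjusted p = 1.53e-05) with PB+RA. PB+RA was above RA by 0.82 (SE 0.26, adjusted p = 0.0398).

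Of the other synaptotagmins, SYT5 had 3 regions, all higher with RA, and SYT4 had 2 of 5 higher with RA and 3 with PB+RA. SYT2, a fast sensor, had 12 regions, of which PB raised 2, RA 1 and PB+RA 1, and PB+RA lowered 1. SYT7 had 14 regions, of which 1 was lower with PB and 1 with PB+RA. SYT6 and SYT13 had no called region.

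Of the 78 vesicle protein regions, PB called 7 higher (8.97%, against 4.85% of all regions) and 0 lower (0%, against 4.37%). RA called 12 higher (15.4%, against 10.3%) and 5 lower (6.41%, against 6.67%). PB+RA called 19 higher (24.4%, against 18.3%) and 6 lower (7.69%, against 12%). After GC centring these counts were 7 and 0 with PB, 10 and 5 with RA, and 16 and 8 with PB+RA. SYN2 held most of the RA and PB+RA calls. It encodes synapsin II, which tethers vesicles in the reserve pool. Of its 39 regions, RA raised 10 (25.6%) and lowered 5 (12.8%). PB+RA raised 13 (33.3%) and lowered 5 (12.8%, near the 12% of all regions). All 5 falls with RA lay among the 11 regions upstream of the gene, and all 10 rises among the 28 regions in the gene body. With PB+RA, 4 of the 5 falls lay upstream and all 13 rises lay in the gene body. TIMP4, a gene nested within SYN2, was the nearest start for several of the body regions, so these are linked to SYN2 by overlap alone. PB raised 2 SYN2 regions and lowered 0. After GC centring, RA raised 6 and lowered 5 SYN2 regions, and PB+RA raised 8 and lowered 6.

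In the SYN2 body, the region at chr3:12145333-12152358 (intron, nearest start TIMP4) had 1.32, 0.998, 0.201 and 0.0943 in the PB libraries, 5.86, 4.2, 2.15 and 3.6 in the RA libraries, 5.23, 4.51, 3.28 and 2.8 in the PB+RA libraries, against 0 in all 4 DMSO libraries. No DMSO library had a peak there, and it rose by 2.25 (SE 0.28, adjusted p = 6.17e-06) with RA and 2.28 (SE 0.28, adjusted p = 3.17e-06) with PB+RA. The region at chr3:12171140-12178826 (intron, nearest start TIMP4) had 0.914, 1.08, 0.521 and 0.769 with PB, 4.65, 5.1, 4.19 and 3.93 with RA, 4.88, 4.07, 3.75 and 3.2 with PB+RA, against 0.443, 0.397, 0.993 and 0.0687 with DMSO. RA and PB+RA libraries again lay above all PB and DMSO libraries, with rises of 1.92 (SE 0.21, adjusted p = 1.68e-06) and 1.78 (SE 0.21, adjusted p = 2.22e-06). At chr3:12115793-12118481 (intron) the values were 0, 0, 0.819 and 0 in the PB libraries, 2.85, 2.65, 1.62 and 1.04 in the RA libraries, 2.16, 2.01, 3.05 and 1.94 in the PB+RA libraries, against 0 in all 4 DMSO libraries. The rises there were 1.56 (SE 0.29, adjusted p = 5.42e-04) with RA and 1.71 (SE 0.29, adjusted p = 1.33e-04) with PB+RA. Another region (chr3:12161604-12162227, intron, nearest start TIMP4) had 0, 0, 0.847 and 0 with PB, 2.16, 1.75, 2.33 and 2.14 with RA, 0, 0, 2.54 and 0 with PB+RA, against 0 in all 4 DMSO libraries. This one rose with RA, by 1.63 (SE 0.37, adjusted p = 0.00331), and only 1 PB+RA library had a peak.

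Upstream of SYN2, the region at chr3:12031833-12042109, 3.75 kb from the start, had 5.66, 3.87, 3.86 and 4.3 in the PB libraries, 0.413, 0.695, 0.167 and 0.917 in the RA libraries, 1.32, 0.97, 1.77 and 1.15 in the PB+RA libraries, against 5.01, 4.42, 3.8 and 4.03 in the DMSO libraries. PB and DMSO libraries overlapped, the RA libraries were the lowest and the PB+RA libraries lay between, and the region fell by 1.80 (SE 0.20, adjusted p = 1.96e-06) with RA and 1.21 (SE 0.20, adjusted p = 8.91e-05) with PB+RA. Next to it, chr3:12026998-12028633 had 1.62, 0.443, 1.32 and 2.68 with PB, 0 in all 4 RA libraries, 0 in all 4 PB+RA libraries, against 3.61, 1.97, 0.392 and 0.428 with DMSO. No RA or PB+RA library had a peak, and the falls were 1.19 (SE 0.37, adjusted p = 0.0275) with RA and 1.19 (SE 0.37, adjusted p = 0.0172) with PB+RA, the second of which was lost without DMSO replicate 1 or DMSO replicate 2. The SYN2 start-site region between these falls and the rises (chr3:12044001-12049249) was not called, with differences of -0.11 (SE 0.18, adjusted p = 0.826) with PB, -0.36 (SE 0.18, adjusted p = 0.189) with RA and -0.17 (SE 0.18, adjusted p = 0.508) with PB+RA.

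SYN3, which encodes synapsin III, had 13 regions and none at a start. The region at chr22:33315823-33317037 (intron) had 1.79, 1.61, 3.66 and 2.97 in the PB libraries, 1.25, 1.72, 3.81 and 1.84 in the RA libraries, 0.38, 0, 0 and 0 in the PB+RA libraries, against 0, 0.83, 0 and 0.579 in the DMSO libraries. PB and RA libraries all lay above the DMSO libraries, but PB+RA libraries overlapped with DMSO: the region rose by 1.39 (SE 0.31, adjusted p = 0.0067) with PB and 1.21 (SE 0.31, adjusted p = 0.00725) with RA, and the difference with PB+RA was -0.27 (SE 0.31, adjusted p = 0.531). The interaction of the drugs was -2.87 (SE 0.43, 95% CI -3.76 to -1.97, adjusted p = 0.0192), a call lost without RA replicate 2, when values were replaced by the share of the region that peaks covered, and when only peaks over at least 50% of the region were used. A second SYN3 region (chr22:32934499-32936918, intron, nearest start FBXO7) had 1.28, 1.08, 0 and 1.06 with PB, 0.604, 1.99, 0.661 and 1.06 with RA, 4.69, 4.54, 3.21 and 2.1 with PB+RA, against 0, 0.709, 0 and 0 with DMSO. PB+RA exceeded all DMSO libraries, with a rise of 1.98 (SE 0.31, adjusted p = 6.92e-05). SYNPR encodes synaptoporin, a relative of synaptophysin, and a region upstream of it (chr3:63184685-63187133) had 1.2, 2.57, 1.8 and 0.761 in the PB libraries, 0, 0, 0.774 and 0 in the RA libraries, 2.85, 2.08, 2.82 and 1.88 in the PB+RA libraries, against 0 in all 4 DMSO libraries. PB and PB+RA libraries all had a peak and DMSO libraries none, and the region rose by 1.32 (SE 0.29, adjusted p = 0.00716) with PB and 1.76 (SE 0.29, adjusted p = 1.13e-04) with PB+RA.

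The active zone and priming genes held 229 regions, the largest of the role groups, of which 21 were higher with PB (9.17%, against 4.85% of all regions) and 3 lower (1.31%, against 4.37%). With RA, 8 were higher (3.49%, against 10.3%) and 30 lower (13.1%, against 6.67%), and with PB+RA, 31 were higher (13.5%, against 18.3%) and 19 lower (8.3%, against 12%). PB calls were thus mainly rises and RA calls mainly falls. Without DMSO replicate 3, PB called 23 higher and 13 lower and PB+RA 30 higher and 33 lower. After GC centring the counts were 8 higher and 0 lower with PB, 7 higher and 38 lower with RA, and 15 higher and 33 lower with PB+RA. RIMS2, RAB3C and CADPS held most of these calls: RIMS2 had 5 of 43 regions higher with PB and 7 lower with RA, RAB3C 4 of 38 higher with PB and 7 lower with RA, and CADPS 6 of 28 higher with PB and 5 lower with RA. After GC centring, PB raised 1, 1 and 2 regions in RIMS2, RAB3C and CADPS, and RA lowered 8, 10 and 7. RA raised 1 region in each of these genes. With PB+RA, RIMS2 had 5 regions higher and 3 lower, RAB3C 6 and 2, and CADPS 8 and 2. After GC centring, PB+RA called 2 higher and 13 lower in RIMS2, 1 and 7 in RAB3C, and 5 and 4 in CADPS.

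RAB3C, a vesicle GTPase, had 2.65, 2.78, 4.21 and 4.27 with PB, 0, 0.716, 0.435 and 0.618 with RA, 1.5, 1.69, 3.01 and 3.78 with PB+RA, against 2.26, 2.98, 4.58 and 2.72 with DMSO at chr5:57943981-57947096 (intron). The RA libraries were the 4 lowest of the 16, with no overlap, and the fall with RA was 1.52 (SE 0.25, adjusted p = 1.41e-04). With PB+RA the region stood above RA by 1.25 (SE 0.25, adjusted p = 0.0022) and differed from DMSO by -0.27 (SE 0.25, adjusted p = 0.431). A RIMS2 intron (chr8:104693567-104697174) also had its lowest values with RA. It had 3.72, 4.97, 3.52 and 2.76 in the PB libraries, 0.369, 0.337, 0 and 0 in the RA libraries, 0.997, 2.71, 0.655 and 1.16 in the PB+RA libraries, against 2.8, 2.09, 2.75 and 1.58 in the DMSO libraries. RA libraries lay below all others, and the fall with RA was 1.49 (SE 0.25, adjusted p = 2.33e-04).

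Other RIMS2 regions rose. The region at chr8:104753742-104755626 (intron) had 2, 2.95, 2.86 and 1.4 with PB, 1.79, 0.31, 0 and 0.212 with RA, 1.73, 2.58, 2.85 and 3.33 with PB+RA, against 0, 0, 0.324 and 0 with DMSO. PB and PB+RA libraries exceeded all DMSO libraries, and the rises were 1.59 (SE 0.30, adjusted p = 0.0023) with PB and 1.74 (SE 0.30, adjusted p = 1.65e-04) with PB+RA. At chr8:104883405-104885102 (intron) the values were 1.49, 1.66, 1.17 and 5.21 in the PB libraries, 0, 0, 0.359 and 0 in the RA libraries, 0, 0.636, 0.696 and 0 in the PB+RA libraries, against 0, 0, 0.866 and 0 in the DMSO libraries. PB stood above DMSO without overlap, by 1.39 (SE 0.36, adjusted p = 0.0172), but the call was lost without PB replicate 4, the highest library, without DMSO replicate 2 and after GC centring (1.13). Upstream of the gene, 5.79 kb from the start (chr8:104505282-104507049), the values were 0 in all 4 PB libraries, 0.696, 0, 0 and 0 with RA, 3.15, 3.43, 3.01 and 2.39 with PB+RA, against 0 in all 4 DMSO libraries. No PB or DMSO library had a peak, whereas all PB+RA libraries did: the region rose by 1.99 (SE 0.28, adjusted p = 1.84e-05) with PB+RA, and the interaction of the drugs was 1.80 (SE 0.40, 95% CI 0.98 to 2.62, adjusted p = 0.0483). That interaction call did not hold without any 1 of 15 of the 16 libraries (PB+RA replicate 4 being the exception), nor with the replicate number as a block in the fit, without library scaling, with a constant of 0.5 in place of 1, or with values replaced by the share of the region that peaks covered (the covered share).

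RIMS1 rose at several distal regions. The intronic region at chr6:72842017-72844348, 48.1 kb from the nearest RIMS1 start, had 2.14, 2.66, 3.18 and 2.37 in the PB libraries, 3.14, 1.17, 2.72 and 3.52 in the RA libraries, 3.95, 3.88, 3.5 and 4.62 in the PB+RA libraries, against 0 in all 4 DMSO libraries. All 12 treated libraries had a peak and no DMSO library did, and the rises were 1.84 (SE 0.22, adjusted p = 5.50e-05) with PB, 1.81 (SE 0.22, adjusted p = 5.31e-06) with RA and 2.31 (SE 0.22, adjusted p = 1.58e-07) with PB+RA. Another RIMS1 region (chr6:73005489-73007542, over coding exons) had 1.85, 3.28, 3.11 and 0 with PB, 0 in all 4 RA libraries, 2.42, 3.32, 2.34 and 1.91 with PB+RA, against 0 in all 4 DMSO libraries. It had a peak in 3 PB and 4 PB+RA libraries and in no RA or DMSO library, and rose by 1.41 (SE 0.36, adjusted p = 0.0161) with PB and 1.79 (SE 0.36, adjusted p = 6.38e-04) with PB+RA. The PB call was lost without PB replicate 2 or PB replicate 3. CADPS, at chr3:62790472-62792314 (intron), had 3.16, 2.31, 2.43 and 3.84 in the PB libraries, 1.25, 0.715, 0.647 and 1.44 in the RA libraries, 3.43, 2.81, 2.66 and 2.38 in the PB+RA libraries, against 0 in all 4 DMSO libraries. DMSO again had no peak, and the rises were 1.96 (SE 0.22, adjusted p = 3.43e-05) with PB, 0.99 (SE 0.22, adjusted p = 0.00297) with RA and 1.93 (SE 0.22, adjusted p = 1.81e-06) with PB+RA.

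**Figure D5:**
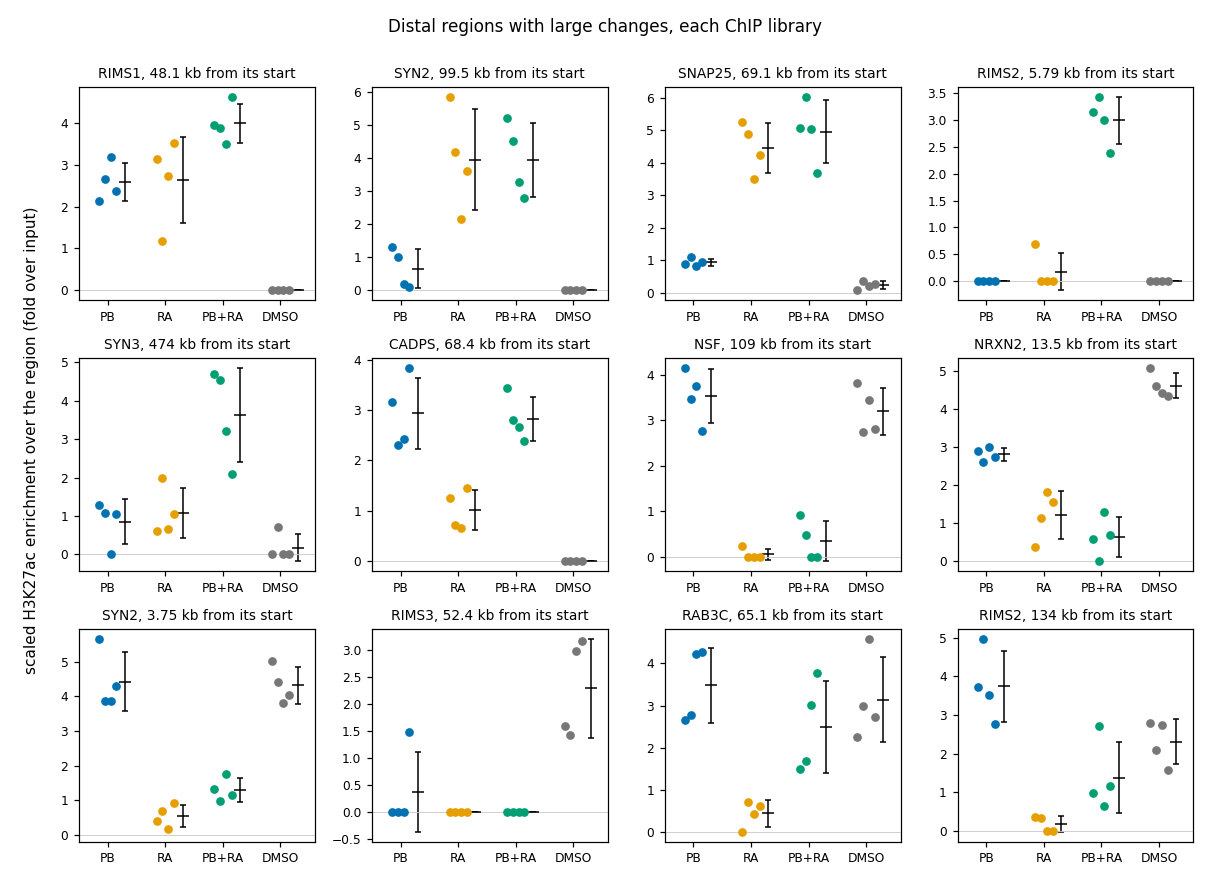
Scaled H3K27ac enrichment (y axis, fold over input) in each ChIP library at 12 distal regions with large changes, titled by member and distance from its nearest start; points are libraries in the groups PB, RA, PB+RA and DMSO, and the bar is the mean ± SD (n = 4). The first RIMS1 region has values of 3.5 to 4.62 with PB+RA and 0 in all DMSO libraries, and the RAB3C region has values of 0 to 0.716 with RA, below the DMSO libraries at 2.26 to 4.58.

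Further falls at active zone genes were measured in RIMS3, NRXN2 and BSN. RIMS3 had 4 of 7 regions lower with RA, 1 with PB and 2 with PB+RA, and none higher. Downstream of its main start (chr1:41078134-41078711, outside the gene) it had 0, 0, 0 and 1.48 with PB, 0 in all 4 RA libraries, 0 in all 4 PB+RA libraries, against 1.58, 1.42, 2.98 and 3.16 with DMSO. All 4 DMSO libraries and 1 PB library had a peak, and the region fell by 1.34 (SE 0.33, adjusted p = 0.0126) with PB, a call lost after GC centring (-0.98), 1.67 (SE 0.33, adjusted p = 8.68e-04) with RA and 1.67 (SE 0.33, adjusted p = 5.23e-04) with PB+RA. A RIMS3 intron (chr1:41096347-41097174) had 1.33, 0, 1.75 and 1.93 in the PB libraries, 1, 0, 0 and 0 in the RA libraries, 0, 0, 0 and 1.94 in the PB+RA libraries, against 3.73, 3.28, 1.38 and 2.51 in the DMSO libraries. It fell by 1.60 (SE 0.40, adjusted p = 0.00699) with RA and 1.46 (SE 0.40, adjusted p = 0.00815) with PB+RA, and 1 PB+RA library overlapped with DMSO. In NRXN2, an intronic region (chr11:64442374-64444335) had 2.89, 2.62, 3.01 and 2.75 with PB, 0.376, 1.14, 1.83 and 1.55 with RA, 0.576, 0, 1.3 and 0.691 with PB+RA, against 5.09, 4.62, 4.44 and 4.35 with DMSO. The groups did not overlap with DMSO, and the falls were 1.39 (SE 0.24, adjusted p = 2.99e-04) with RA and 1.84 (SE 0.24, adjusted p = 9.34e-06) with PB+RA. BSN had 14 regions, of which PB raised 1, a call lost after GC centring (0.98) and without any 1 of 5 of the 16 libraries. A BSN region nearest to the start of APEH (chr3:49697193-49713729, over coding exons) had 2.57, 2.55, 1.9 and 2.35 in the PB libraries, 4.58, 3.88, 3.86 and 2.63 in the RA libraries, 1.7, 2.37, 1.2 and 2.37 in the PB+RA libraries, against 5.81, 4.57, 4.11 and 3.27 in the DMSO libraries. PB and PB+RA libraries lay below all DMSO libraries, by 0.90 (SE 0.19, adjusted p = 0.00121) with PB+RA and 0.69 (SE 0.19, adjusted p = 0.0291) with PB. Both calls were lost after GC centring (-0.48 and -0.32). The PB call was also lost without PB replicate 2, PB replicate 3, DMSO replicate 1 or DMSO replicate 2.

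The remaining active zone members changed at few regions. PCLO, the piccolo scaffold, had 18 regions, with 1 higher with PB, 1 lower with RA, and 4 higher and 1 lower with PB+RA, and after GC centring PB called none, RA 3 lower, and PB+RA 1 higher and 3 lower. CPLX2 had 2 of 17 regions lower with RA and 3 lower with PB+RA. UNC13A, the main vesicle-priming factor, had 2 of 17 higher with RA. SYN1 and SV2C, of the vesicle proteins, each had 1 region called, higher by 1.52 with PB+RA and by 1.14 with PB, and the SV2C call was lost after GC centring (0.92) and without any 1 of 13 of the 16 libraries. UNC13B, a priming relative of UNC13A, had 1 of 5 higher with PB and 2 with PB+RA, none of which was called after GC centring. UNC13C had a single region, which rose by 1.47 with PB+RA, and CADPS2 had 1 of 2 regions higher with PB+RA, by 1.62. At that CADPS2 region, fewer than 4 of the 16 libraries had a peak. NRXN3 had 1 of 6 regions higher with RA and with PB+RA, of which GC centring ended the PB+RA call. CPLX1 and RAB3A had no called region. In the other groups the same held for SNAP23, STX1A, SV2A, SV2B, SYNGR1, SYP, SYT6, SYT13, DNM1 and SYNJ1, which makes 12 members with regions but no call against DMSO.

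The membrane recycling genes, whose products pinch off and uncoat retrieved vesicles, showed no call against DMSO in 11 regions. Without DMSO replicate 3, 3 of them were lower with PB and 4 with PB+RA. DNM1, the neuronal dynamin, was lower with PB+RA than with RA at 4 of 6 regions, by 0.69 to 1.17 on the log2 scale. Of these, 3 lay at its starts. Along the gene, the 4 calls were lost after GC centring (-0.32, -0.64, -0.41 and -0.62). In the same order, they were also lost without any 1 of 5, 6, 2 and 11 of the 16 libraries.

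Set against the single drugs, PB+RA differed from PB at 51 member regions higher (10.2%, against 11.2% of all regions) and 38 lower (7.62%, against 5.37%). It differed from RA at 70 higher (14%, against 8.62%) and 14 lower (2.81%, against 5.92%). SYT1, RAB3C and CADPS gave 15, 9 and 9 of the 70 regions higher than with RA. RIMS2 gave 12 of the regions lower than with PB. Centring by GC content changed the comparison with PB to 30 higher and 65 lower, and that with RA to 40 higher and 13 lower. The interaction of PB and RA was called at 1 member region higher (0.2%, against 0.211% of all regions), in RIMS2, and at 1 lower (0.2%, against 0.152%), in SYN3, both given above with the settings that ended these calls. At the other member regions no departure from the sum of both drugs was called with these libraries. Without any 1 of the PB, RA or DMSO libraries or PB+RA replicate 1, no member region was called higher for the interaction, and without RA replicate 2 none was called lower. The count lower against PB was 23, 24 and 25 without PB replicate 1, PB+RA replicate 1 and PB+RA replicate 2, and that lower against RA was 9 without PB+RA replicate 3.

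The authors' mean concentrations, which have no error, are given as a description. A difference of 1 or more from DMSO was reached at 38 member regions higher with PB (7.62%, against 7.27% of all regions) and 17 lower (3.41%, against 8.14%). With RA, 54 were higher (10.8%, against 14.6%) and 48 lower (9.62%, against 7.24%), and with PB+RA, 107 were higher (21.4%, against 19.8%) and 53 lower (10.6%, against 16.1%). The members' median difference for PB, RA and PB+RA was 0.23, -0.04 and 0.13, beside -0.09, -0.01 and -0.02 over all regions. At the members' start sites the medians were -0.16, -0.15 and -0.00 in the same order, beside -0.37, -0.14 and -0.22 over all start-site regions, and at distal regions 0.29, -0.02 and 0.17, beside 0.02, 0.07 and 0.09. After GC centring, 19 member regions were past 1 higher and 10 lower with PB, and 63 higher and 63 lower with PB+RA.

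Peaks themselves covered more member regions in the combined treatment. A library had a peak at 60% ± 5.81 of member regions with PB, 54.4% ± 2.32 with RA, 65% ± 4.27 with PB+RA and 52.6% ± 4.45 with DMSO (SD, n = 4 each). The PB+RA libraries (59.1% to 68.7%) did not overlap with the DMSO libraries (46.3% to 56.1%). At distal regions the shares were 57.8% ± 6.44, 50.1% ± 4.08 and 62.7% ± 4.58 with PB, RA and PB+RA, against 48.3% ± 5.51 with DMSO, and at start sites 75% ± 2.25, 81.7% ± 10.2 and 80.6% ± 5.34, against 80.6% ± 3.67. Over all 92108 regions a library had a peak at 57.3% ± 2.85 with PB, 64.2% ± 1.96 with RA, 64.4% ± 5 with PB+RA and 58.3% ± 5.78 with DMSO.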

How the data were processed

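H3K27ac ChIP-seq was measured in 16 ChIP libraries of SK-N-BE(2)C cells, 4 in each group. The 16 input libraries have no values of their own here. The tools named in the submitters' notes are fastp 0.12.4, Bowtie2 2.4.4, MACS2 2.2.7.1, DiffBind 3.4 and deepTools, with the hg19 build. The deposited peak files, 1 per library, give each broad peak's fold enrichment over input (a linear ratio) and its −log10 q. The deposited comparison tables give 92108 regions with the authors' mean log2 concentration per group. Their columns of overall concentration, fold changes, p-values and FDR were not used. No counts per library were used, so read depth is unknown, and values cover only called peaks.

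A region's value in a library was the fold enrichment of its peaks averaged over the region. Libraries were scaled on the 26508 regions with a peak in all 16. limma 3.58.1 (R 4.3.3, with an intensity trend) was fitted to log2(value + 1) over all regions and 4 groups, with Benjamini-Hochberg adjustment and calls at an adjusted p under 0.05 and a difference beyond 0.5. The fit was tested on simulated data with changes planted only at regions of higher mean value. That does not test regions where most libraries had no peak. Regions were linked to 78714 protein-coding starts of GENCODE 44 (bedtools 2.31.1), and sequence was read with pysam 0.24.0, leaving out 16 regions on names that are not in the reference used. Other steps used Python 3.11.15 and pandas 2.3.3. Members and lists were chosen with earlier results of these data known. Values per library are given for the 12 start-site regions, standing for a member and called against DMSO, with the smallest adjusted p, and for the 8 distal regions with the largest called rise and the 8 with the largest called fall in each comparison with DMSO. Other called regions described were chosen after their values were seen. Alternatives covered the constant, scaling, peak filters, GC centring, a replicate block, region links and leaving out each library. Leaving out the 7 distal regions within 3 kb of another gene's start was added after seeing the data. The count over the whole list of adrenergic markers is not reported here.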

Additional observations from a re-analysis of the deposited data

Results flagged for a closer look

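Among the regions given per library, 103 groups of 4 libraries were checked for a value far from the other 3, and 9 had one. A chance rate of about 1 in 20 does not apply where the other 3 libraries stand at 0. In 8 of the 9 the other 3 libraries had no peak. These were NSF at chr17:44810028 with RA (replicate 1, 0.236), RAB3B at chr1:52455932 with PB+RA (replicate 4, 2.19), RIMS2 at chr8:104753742 with DMSO (replicate 3, 0.324) and RIMS2 at chr8:104883405 with DMSO (replicate 3, 0.866). The same held for RIMS3 at chr1:41078134 with PB (replicate 4, 1.48), RIMS3 at chr1:41096347 with RA (replicate 1, a value of 1) and with PB+RA (replicate 4, 1.94), and SYN3 at chr22:32934499 with DMSO (replicate 2, 0.709). The ninth was RIMS2 at chr8:104883405 with PB, where replicate 4 had 5.21 and the others 1.17 to 1.66.

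At 2 member regions the limma interaction test over all regions called a difference between the effects of RA with and without PB, and neither call held under every alternative. The interaction was 1.80 in RIMS2 (chr8:104505282) and -2.87 in SYN3 (chr22:33315823), on the log2(scaled enrichment + 1) scale. The RIMS2 call (adjusted p = 0.0483) was lost without any 1 of 15 of the 16 libraries, with the replicate block, without library scaling, with a constant of 0.5 and with the covered share alone. The SYN3 call (adjusted p = 0.0192) was lost without RA replicate 2, with the covered share alone and with peaks over at least 50% of the region.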

How the results depend on the processing

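Values below are numbers of member regions called higher and lower unless named otherwise. The regions given per library had 61 results, each tested under at most 25 alternatives. Of these results, 22 kept their call under every alternative in which they were tested, and 39 lost it under at least 1. For some of the 22, only 24 alternatives were tested, because a peak filter left their region out. When only the covered share was used, 2 reversed (SYT5 with PB -0.02, VAMP2 with PB+RA 0.03). In all, 13 were lost under GC centring and 17 with the covered share. The causes were not tested.

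With a constant of 0.5 the interaction called 0 higher and 2 lower. Without library scaling PB called 21 higher (1 at start sites), RA 1 start site higher and the interaction 0 higher. Over all regions PB then called 2562 higher, in place of 4471. Requiring a peak in 4 or more of the 16 libraries gave 2 and 2 for the interaction. With peaks of −log10 q of 5 or more, PB called 5 and 0 (0 start sites lower), RA 9 and 11, PB+RA 21 and 7 (2 start sites lower), PB+RA against PB 11 and 7, against RA 13 and 2, and the interaction 0 lower. That filter left 30441 of all regions to test, of which PB called 803 and 1005, RA 1895 and 1849, and PB+RA 4495 and 3477. With peaks over at least 50% of the region, PB called 11 higher (start sites 0 and 0), RA 10 and 18 (1 and 3), PB+RA 46 and 17 (4 and 3), PB+RA against PB 29 and 15, against RA 29 and 3, and the interaction 4 and 0. Of the 79984 regions tested under it, PB called 1267 and 2241, RA 4159 and 3190, and PB+RA 7422 and 5600. With the covered share, PB called 9 and 3 (1 and 1), RA 13 and 12 (0 and 0), PB+RA 48 and 13 (1 and 2), PB+RA against PB 27 and 8, against RA 22 and 5, and the interaction 0 and 0. Over all 92108 regions it gave 865 and 1298 with PB, 3907 and 2241 with RA, and 7365 and 3708 with PB+RA. After centring in 10 GC classes, PB called 25 and 1 (6 and 0), PB+RA 58 and 57, PB+RA against PB 30 and 65, against RA 40 higher, and the interaction 2 lower, and the authors' means were past 1 at 19 and 10 with PB and 63 and 63 with PB+RA. With a minimum difference of 1, PB called 26 higher (1 at start sites), RA 23 lower (0 and 2), PB+RA 22 lower (4 start sites higher), PB+RA against PB 23 lower and against RA 45 and 9. Linked by nearest start alone, RA called 20 higher, PB+RA 67, PB+RA against PB 32 and 25, and against RA 46 higher. With a minimum of 0.5, the authors' means were past it at 145 and 72 (PB), 127 and 118 (RA) and 190 and 119 (PB+RA).

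Leaving out 1 library at a time, PB called 22 (without PB replicate 2) to 44 higher (start sites 1 to 4) and 4 to 18 lower (1 to 4), RA 31 to 41 higher (1 to 6) and 32 to 44 lower (4 to 6), and PB+RA 78 to 108 higher (6 to 9) and 25 to 53 lower (6 to 9). The counts of 18 and 53 came without DMSO replicate 3. PB+RA against PB gave 38 to 59 and 23 to 40, against RA 54 to 73 and 9 to 16, and the interaction 0 to 3 and 0 to 1.

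The labels tie a replicate number to no shared culture or day, and not every pair of same-numbered libraries passed a correlation of 0.1, so the libraries were not treated as paired. Deviations of same-numbered libraries correlated by 0.106 on average (-0.0597 to 0.193, with 13 of 24 pairs over 0.1), against -0.0351 for different numbers. Of 16 libraries, 2 correlated best with their own number in every other group. Replicates 1 and 2 mostly correlated positively across groups (RA replicate 2 with DMSO replicate 1, 0.202), as did 3 and 4 (RA replicate 3 with PB+RA replicate 4, 0.196). Correlations between these sets were mostly negative (RA replicate 1 with DMSO replicate 4, -0.22). The cause of this split was not tested. With replicate number as a block, PB called 49 and 6 (start sites 4 and 3), RA 42 and 45 (7 and 7), PB+RA 103 and 39 (8 and 8), PB+RA against PB 54 and 39, against RA 76 and 15, and the interaction 0 and 1. Over all regions the block gave 5531 and 5151 with PB, 10477 and 6787 with RA, and 18045 and 12312 with PB+RA. No call against DMSO at the regions given per library was lost, whereas the RIMS2 interaction call was.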

Other observations

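From a list of 78 other presynaptic genes, outside the 47 members, 74 had regions. With PB+RA, 107 of 531 region-gene links were called higher (20.2%, against 18.3% of all regions) and 55 lower (10.4%, against 12%). RA called 57 higher (10.7%, against 10.3%) and 22 lower (4.14%, against 6.67%), and PB 20 higher (3.77%, against 4.85%) and 22 lower (4.14%, against 4.37%). The shares called higher lay near those of all regions. ERC1, an active zone scaffold that binds RIM, had 26 regions, of which PB+RA raised 13 and lowered 0 and RA raised 4 and lowered 1. RAB27B, a GTPase of secretory vesicles, had all 9 of its regions higher with PB+RA, by 0.87 to 1.77 on the log2(scaled enrichment + 1) scale. AP2B1, a subunit of the endocytic adaptor AP-2, had 8 of 14 regions higher with PB+RA, whereas AP2S1, its small subunit, had 4 of 8 lower.

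DNM3, a dynamin, had 11 of 21 regions higher with RA and 6 with PB+RA, and none lower. RPH3A, which encodes the RAB3 effector rabphilin, had 6 of 21 regions lower with RA and 9 with PB+RA, and none higher. These genes were picked after their values were seen, and GC content was not taken into account for their counts.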
